A study of Mus musculus with 9 samples.

Results

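The genes described here, used as markers of the state of insulin-producing beta cells, were followed in mouse pancreatic islets, the clusters of hormone cells within the pancreas. The 7 members were Aldh1a3, Neurog3, Gast, Cck, Ucn3, Tph1 and Tph2, taken by name from a table of 56941 genes, and each matched 1 row. The islets came from wild-type male C57BL/6J mice that were 15 weeks old at the start and ate 1 of 3 diets for 9 months. The low fat diet (LFD, 3 samples) held 10% fat, the high fat diet (HFD, 2 samples) 60% fat and the ketogenic diet (KD, 4 samples) 89.9% fat. The labels do not say whether a sample came from 1 animal or from pooled animals, so p-values measure the spread between these samples only. The comparisons asked how each fat-rich diet altered islet transcripts, here with regard to beta cell identity.

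Dedifferentiation is the loss of the mature program of beta cells under metabolic stress, with the return of genes of immature endocrine cells. Aldh1a3, which encodes an enzyme that makes retinoic acid, marks failing beta cells in diabetic mice. Neurog3 encodes the transcription factor that commits pancreatic progenitors to an endocrine fate. Gast and Cck encode the gut peptides gastrin and cholecystokinin, which beta cells of diabetic or obese rodents can produce. Ucn3 differs from the other members, since it encodes urocortin 3, a peptide of mature beta cells that is lost on dedifferentiation. Tph1 and Tph2 encode the enzymes for the first step of serotonin synthesis, and the former is known for its strong rise in islets of pregnant mice.

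Total counts ran from 15513502 to 26588390 per library. The 19 acinar markers, genes of the enzyme-secreting tissue around islets, took 12.7% to 29.4% of counts on LFD, 9.51% and 15.8% on HFD and 17.2% to 50.7% on KD. The 15 beta cell markers, which defined the labelled tissue and were all detected, took 5.91% to 9.77%, 12.0% and 13.2%, and 1.79% to 13.1% of counts in the same order. KD replicate 4 stood apart from the other KD libraries, with 13.1% beta and 17.2% acinar counts against at most 5.28% and at least 36.9% in KD replicates 1 to 3. In such bulk samples, fewer cells of a type and less RNA per cell cannot be told apart. Results are therefore given per library, with and without KD replicate 4 where it decides them, and also relative to beta cell marker counts.

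No member passed the test in any of the 3 comparisons, but the members did not share one pattern. Aldh1a3 was 3.62-fold higher on HFD than on LFD, with no overlap of the libraries. The HFD libraries were all above the LFD libraries for 13.4% of all genes tested. For Aldh1a3, 3 of the 4 KD libraries lay within or below the LFD range. Ucn3 was abundant on every diet. Neurog3 and Tph2 were present at low levels, and Gast, Cck and Tph1 were at or near 0 throughout. Levels are CPM, the count scaled to a common library size, on library sizes scaled by TMM, a method that aligns the bulk of genes between libraries. Of the 7 members, 4 (Ucn3, Aldh1a3, Neurog3 and Tph2) had enough counts to enter the test, which was edgeR's quasi-likelihood test over 18548 genes with Benjamini-Hochberg adjustment and a threshold of 0.05. By that test 0 of the 4 were called for KD against LFD, where 4.12% of all genes were called. For HFD against LFD, 0 of 4 were called against 0% of all genes, and for KD against HFD again 0 of 4 against 0%. At an unadjusted p below 0.05 there was 1 member, Aldh1a3, in HFD against LFD and 0 in each of the other comparisons, where 9.98% of all genes were below it in the former and 22.7% in each of the latter. The DESeq2 Wald test also called 0 members in each comparison, though it gave no adjusted p to Tph2 for KD against HFD, and it called 1773, 268 and 1518 genes in all for KD against LFD, HFD against LFD and KD against HFD.

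Per kilobase of exon, Ucn3 had the highest level of the members by far, at 102 CPM per kb on LFD, 143 on HFD and 118 on KD. Neurog3 followed on LFD and KD with 1.09 CPM per kb on the former and a higher level than Aldh1a3 on the latter, and stood at 0.740 on HFD. Aldh1a3 measured 0.732 CPM per kb on LFD and 0.935 on KD, and took second place on HFD with 2.64. Tph2 lay lower, at 0.155, 0.296 and 0.0920 CPM per kb on LFD, HFD and KD. On KD the libraries of Neurog3 (0.744 to 2.01 CPM per kb) and Aldh1a3 (0.286 to 2.41) overlapped, so their order there does not exceed the spread between libraries.

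**Figure D1:**
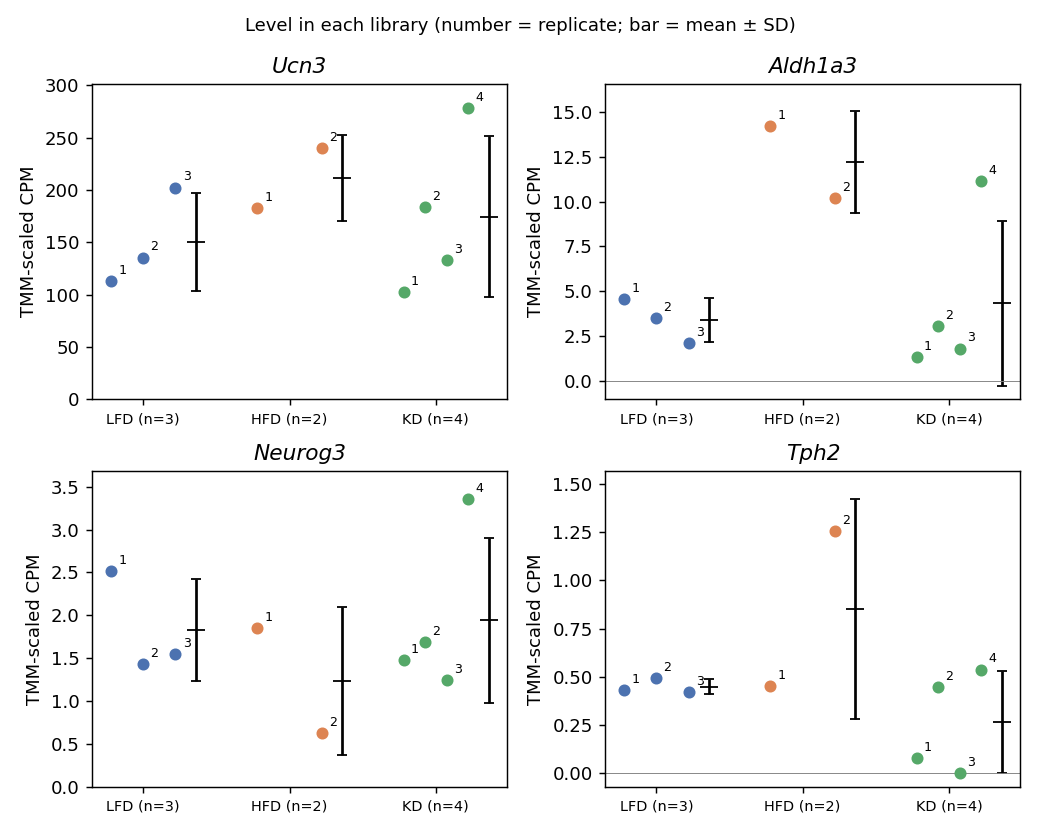
TMM-scaled CPM (vertical axes, linear) of the 4 members with enough counts to be tested, in each library of the 3 diets; points are libraries with their replicate number and bars show the mean ± SD. Aldh1a3 lies at 10.2 and 14.2 CPM in the HFD libraries and at 11.1 in KD replicate 4, above 1.32 to 4.53 in the other libraries.

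Ucn3, the marker of mature beta cells, measured 113, 136 and 202 CPM in LFD replicates 1 to 3. It measured 183 and 240 CPM in the HFD libraries. In KD replicates 1 to 4 it was 103, 183, 133 and 278 CPM. The highest and the lowest of all 9 values were both on KD, and the ranges of the diets overlapped. The mean was 150 ± 46.4 CPM over the LFD libraries (SD, n = 3), 212 ± 40.6 over the HFD libraries (SD, n = 2) and 174 ± 76.8 over the KD libraries (SD, n = 4). On the log2 scale KD differed from LFD by 0.21 (95% interval -0.49 to 0.92, edgeR adjusted p 0.732). For HFD against LFD it was 0.49 (-0.34 to 1.32, edgeR adjusted p 0.672), and for KD against HFD -0.28 (-1.07 to 0.51, edgeR adjusted p 0.678). Without KD replicate 4, the value for KD against LFD turned to -0.11 (edgeR adjusted p 0.835).

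The share of beta cell counts and the level of Ucn3 were extreme in some of the same libraries, though their orders differed. The library with the least Ucn3, KD replicate 1, had the lowest share of beta cell counts (1.79%), and the library with the most, KD replicate 4, had one of the highest (13.1%). HFD replicate 1, with the highest share (13.2%), had less Ucn3 (183 CPM) than LFD replicate 3 (9.77%, 202 CPM). With the acinar share of each library as a covariate, Ucn3 passed the threshold for KD against LFD, with a log2 fold change of 0.79 (SE 0.15, edgeR adjusted p 0.00884, where the alternatives spanned 0.00884 to 0.957). That fit called 1376 of all genes. Per 1000 counts of the 15 beta cell markers, Ucn3 gave 2.02, 2.21 and 2.60 counts for LFD replicates 1 to 3, 1.70 and 3.02 for the HFD libraries, and 3.11, 2.93, 2.72 and 2.48 in KD replicates 1 to 4. Of the KD libraries, 3 of 4 were above every LFD library, and KD replicate 4 was not. The KD mean of the log2 ratio was 0.31 above the LFD mean, a 1.24-fold difference with a two-sided p of 0.0857 by exact permutation over 35 splits. Ins1 and Ins2 make up most of those marker counts. With both left out of the denominator, the ratios were 10.5, 11.8 and 14.5 on LFD, 8.61 and 14.9 on HFD and 15.95, 17.02, 14.87 and 16.5 on KD. The KD libraries then lay above the LFD libraries, by 0.40 on the log2 scale, and the exact permutation p of 0.0286 was the smallest that 35 splits can give. Iapp, the most abundant marker left in that denominator, averaged 7503 CPM on LFD and 6176 on KD. G6pc2, Slc30a8 and Slc2a2 averaged 1307, 569 and 373 CPM on LFD and less on KD (1078, 390 and 254). Ero1b averaged more on KD (1305 on LFD and 1715 on KD), and Glp1r differed little (469 and 472). Over all 15 markers, Ins1 and Ins2 included, 8 were above 0 and 7 below 0 for KD against LFD. That tally gives each marker the same weight whatever its level. The part of the denominator in the Ucn3 difference was not tested, and the share of all genes that separate on this scale was not computed.

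Aldh1a3, the retinoic acid enzyme, measured 4.53, 3.49 and 2.11 CPM in LFD replicates 1 to 3. It measured 14.2 and 10.2 CPM in the HFD libraries. In KD replicates 1 to 4 it was 1.32, 3.03, 1.78 and 11.1 CPM. Both HFD libraries were above the 3 LFD libraries, whereas on KD the values split, with KD replicate 4 at the HFD level and the other 3 within or below the LFD range. Over all genes tested, 13.4% had HFD libraries that were all above the LFD libraries. The highest KD library had 8.44 times the level of the lowest, against 2.15 times on LFD and 1.395 times on HFD.

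The log2 fold change of Aldh1a3 for HFD against LFD was 1.86 (SE 0.75, 95% interval 0.19 to 3.52). Its unadjusted p of 0.0328 became an edgeR adjusted p of 0.471. For KD against LFD the change was 0.40 (-1.06 to 1.87, edgeR adjusted p 0.755), and for KD against HFD it was -1.45 (-2.98 to 0.08, edgeR adjusted p 0.240). KD replicate 4 decided the latter comparisons. Without it the change for KD against LFD was -0.68 (edgeR adjusted p 0.279), and that for KD against HFD was -2.53 (SE 0.39) and passed the threshold (edgeR adjusted p 0.0159, where the alternatives spanned 0.00619 to 0.848), in a fit that called 1768 of all genes. With the acinar share as a covariate the changes were 1.20 for HFD against LFD and -0.53 for KD against HFD, and neither passed (edgeR adjusted p 0.776 and 0.848).

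**Figure D2:**
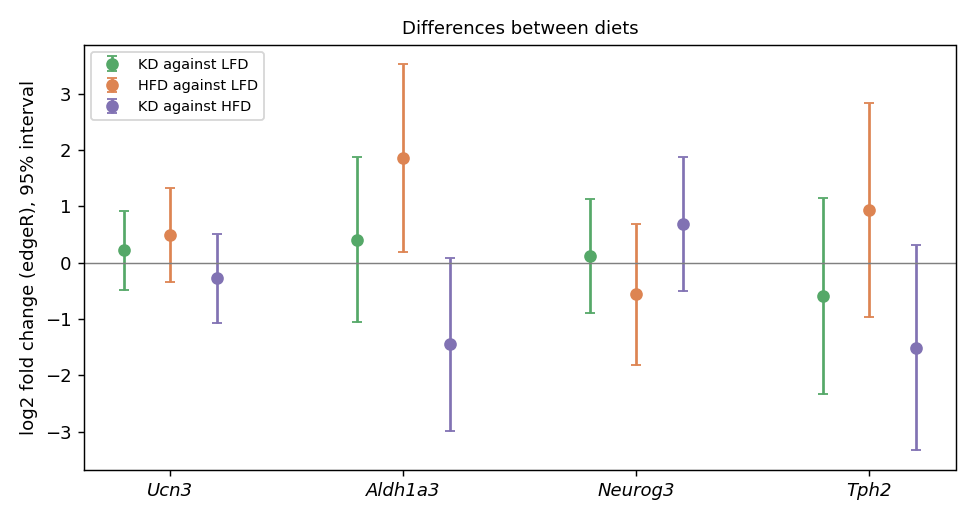
Log2 fold changes (vertical axis) of the 4 tested members in the 3 comparisons; points are edgeR estimates and bars their 95% intervals. The interval of Aldh1a3 for HFD against LFD, 0.19 to 3.52, lies above 0 before adjustment for the number of genes, and the other 11 intervals include 0.

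Relative to the beta cell markers, the HFD libraries were the highest in Aldh1a3. They gave 0.132 and 0.128 counts per 1000 beta marker counts, against 0.0808, 0.0568 and 0.0271 for LFD replicates 1 to 3, and KD replicates 1 to 4 gave 0.0400, 0.0484, 0.0364 and 0.0994. Both HFD libraries thus exceeded the other 7, and KD replicate 4 was the nearest to them. The share of all genes whose ratios separate in this way was not computed. Comparisons of these ratios with HFD were added after the counts had been seen. From the means of the log2 ratios, HFD was at 2.60 times LFD and KD at 0.396 times HFD. The exact permutation p was 0.2 for the former and 0.0667 for the latter, and these group sizes cannot give less than 0.1 and 0.0667. KD and LFD differed by 0.04 (exact permutation p = 0.971), with a direction that changed without LFD replicate 3 (-0.40) or KD replicate 4 (-0.27).

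**Figure D3:**
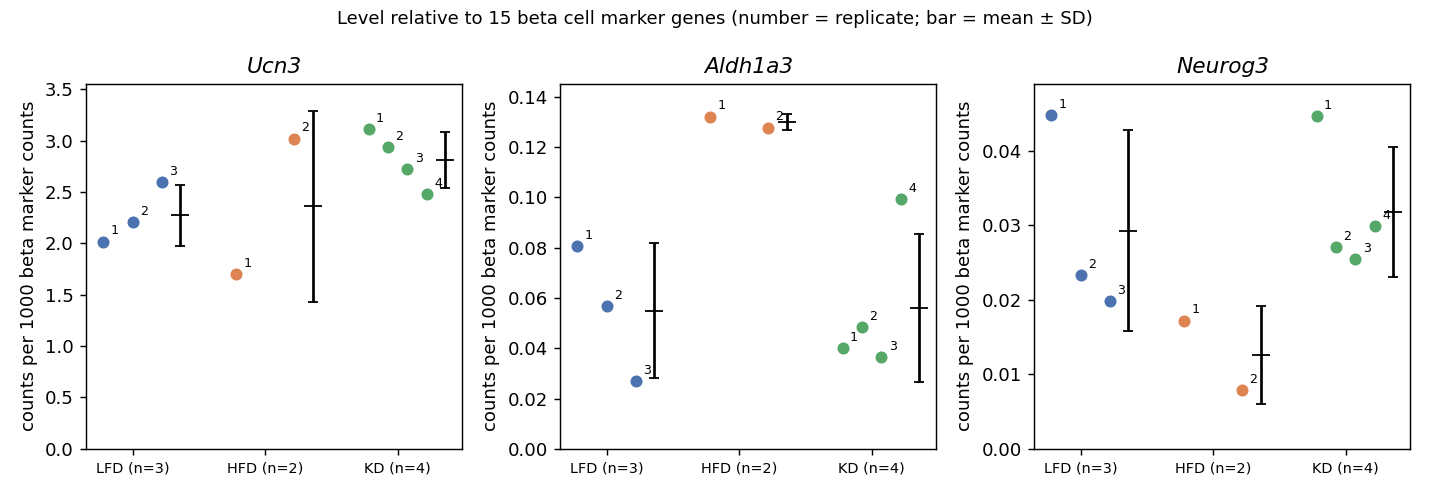
Counts of Ucn3, Aldh1a3 and Neurog3 per 1000 counts of 15 beta cell marker genes (vertical axes, linear) in each library; points are libraries with their replicate number and bars show the mean ± SD. The HFD libraries are the 2 highest for Aldh1a3 (0.132 and 0.128) and the 2 lowest for Neurog3 (0.0172 and 0.00789).

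Neurog3, the factor of endocrine progenitors, had 14 to 75 counts per library. It measured 2.51, 1.43 and 1.55 CPM in LFD replicates 1 to 3, 1.85 and 0.628 CPM in the HFD libraries, and 1.48, 1.69, 1.25 and 3.36 CPM in KD replicates 1 to 4. KD replicate 4 was again the highest KD library, HFD replicate 2 was the lowest of all, and the diets overlapped. Fitted log2 differences were 0.12 for KD against LFD (95% interval -0.90 to 1.14), -0.56 for HFD against LFD (-1.81 to 0.68) and 0.68 for KD against HFD (-0.51 to 1.88). The edgeR adjusted p values were 0.912, 0.743 and 0.479. The direction for KD against LFD turned without LFD replicate 2 (-0.03) or KD replicate 4 (-0.29), and that for HFD against LFD without HFD replicate 2 (0.02).

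Per 1000 beta marker counts, Neurog3 was lowest on HFD. The HFD libraries gave 0.0172 and 0.00789, below 0.0448, 0.0233 and 0.0198 for LFD replicates 1 to 3. KD replicates 1 to 4 gave 0.0447, 0.0271, 0.0255 and 0.0299, all above the HFD libraries. The log2 ratio differed by -1.24 for HFD minus LFD and by 1.41 for KD minus HFD. The exact permutation p was 0.1 and 0.0667, each the smallest these group sizes can give. Genes in general moved the same way on such a scale. With libraries scaled by beta cell markers, the median of all genes was -0.38 for HFD against LFD and 0.37 for KD against HFD. The share of all genes whose ratios separate in this way was not computed. KD and LFD differed by 0.17 on that scale (exact permutation p = 0.600). These ratios of Neurog3, and those of Aldh1a3 against HFD, were added after the counts had been seen. Among the alpha cell markers, genes of glucagon-producing cells, 0 of 7 were called in any comparison. Their summed level was 7675 to 10964 CPM on LFD, 5941 and 9323 on HFD and 7684 to 17004 on KD. For HFD against LFD 7 of 7 alpha cell markers were below 0, with a median log2 fold change of -0.26, and for KD against HFD 6 of 7 were above 0, with a median of 0.73. For KD against LFD 6 of 7 were also above 0, with a median of 0.48. Their part in the Neurog3 ratios was not tested.

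Tph2, the serotonin enzyme best known from neurons, had 7, 11 and 9 counts in LFD replicates 1 to 3, 9 and 30 in the HFD libraries and 1, 10, 0 and 12 in KD replicates 1 to 4. The values were 0.429, 0.492 and 0.422 CPM on LFD, 0.450 and 1.26 CPM on HFD, and 0.0777, 0.445, 0 and 0.537 CPM on KD. HFD replicate 2 alone stood above the rest, and the 2 libraries with the fewest beta cell counts, KD replicates 1 and 3, were the lowest. The 0 of KD replicate 3 allows up to 0.267 CPM (3 counts). Fitted log2 differences were -0.59 for KD against LFD (95% interval -2.33 to 1.15), 0.93 for HFD against LFD (-0.97 to 2.83) and -1.52 for KD against HFD (-3.33 to 0.30), with edgeR adjusted p values of 0.701, 0.722 and 0.297. Of the 7 peripheral neuron markers 6 were tested and 0 called in any comparison. Their summed level ran from 70.2 to 106 CPM on LFD, 82.0 and 116 on HFD and 95.3 to 138 on KD, mostly from Ret and Th. Their part in the Tph2 values was not tested.

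Gast had 0, 0 and 8 counts in LFD replicates 1 to 3, 2 and 4 counts in the HFD libraries and 0 in each KD library. Its 8 counts in LFD replicate 3 correspond to 0.375 CPM (95% exact Poisson interval 0.162 to 0.739). Gastrin transcripts were thus seen in 3 of the 5 LFD and HFD libraries and in 0 of the 4 KD libraries, where the pooled 0 allows up to 0.0435 CPM. Both HFD libraries exceeded all KD libraries. HFD libraries did so for 18.2% of the genes tested, all of which passed the low-count filter that Gast did not pass. Cck had 0, 2 and 1 counts on LFD, 3 and 0 on HFD and 0 in each KD library. Tph1 had 2 counts in LFD replicate 2 and 0 in the other 8 libraries. For these 3 members differences between diets were not detectable at this depth. With no low-count filter, edgeR gave an adjusted p of at least 0.267 to each of them in every comparison, and their fold changes depend on the prior count and are not given. Such intervals and limits cover counting error only.

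**Figure D4:**
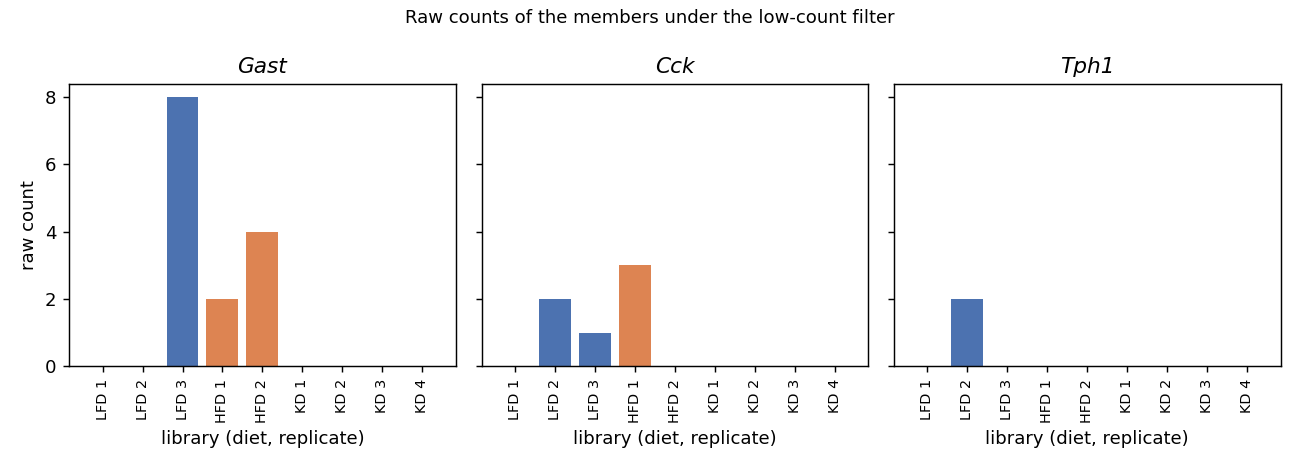
Raw counts (vertical axis, shared) of Gast, Cck and Tph1, the 3 members with too few counts to be tested, in each of the 9 libraries. No KD library had a count of any of the 3, and the largest value was 8, for Gast in LFD replicate 3.

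Other cell types of the preparation that can hold these transcripts were checked by their markers. Of 8 gut epithelium markers, Cdx1 was at 0 in all libraries, Cdx2 had 0 counts on LFD and 2 each on HFD and KD, and their summed level of 33.7 to 73.2 CPM over the 9 libraries came almost wholly from Vil1. Of 9 mast cell markers, Fcer1a and Ms4a2 were at 0 in all libraries. Their sum was 12.9 to 22.7 CPM on LFD, 11.7 and 13.0 on HFD and 13.6 to 23.3 on KD, mostly from Kit, and of the 2 tested 0 were called in any comparison. For KD against LFD, 3 of 9 duct cell markers and 11 of 12 lymphocyte markers were called lower. The summed lymphocyte level was 86.8 to 1324 CPM on LFD, 75.3 and 87.1 on HFD and 9.07 to 32.1 on KD, and its part in the members' values was not tested. For fibroblast and stellate cells 0 of 7 markers were called, with a sum of 257 to 509 CPM on LFD, 283 and 298 on HFD and 121 to 307 on KD. For endothelial cells 0 of 6 were called, with sums of 354 to 454, 601 and 659, and 332 to 513 CPM. Of the 6 delta and PP cell markers 1 was called lower for KD against LFD, Hhex.

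The genes around each member were examined in fixed lists. Besides Aldh1a3, 20 genes of retinoic acid handling and its receptors were listed and 15 were tested. For KD against LFD, 0 rose and 1 fell (0.981% and 3.14% of all genes), and the median log2 fold change was -0.06, beside -0.02 over all genes tested. The gene that fell was Aldh1a2, a second enzyme that makes retinoic acid. It measured 5.15, 6.80 and 1.78 CPM in LFD replicates 1 to 3, 1.999 and 2.39 CPM on HFD and 0.700, 0.712, 0.712 and 2.06 CPM in KD replicates 1 to 4. It fell by 2.08 on the log2 scale (SE 0.51, edgeR adjusted p 0.0443, where the alternatives spanned 0.0026 to 0.133). KD replicate 4 overlapped the LFD range. Of the 9 fits without 1 library, the call held only without LFD replicate 3 or KD replicate 4, and the adjusted p was 0.0698 to 0.133 in the other 7. Aldh1a2 and Aldh1a3 were both lowest in LFD replicate 3 among the LFD libraries and highest in KD replicate 4 among the KD libraries, but the former had its highest values on LFD and the latter on HFD. The median of the list was -0.35 for HFD against LFD, where 0 of 15 were called, beside -0.0017 over all genes.

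Of 19 genes of endocrine progenitors and the Neurog3 cascade, 17 were tested and Pax4, a direct target of Neurog3 in the embryo, was at 0 in all libraries. For KD against LFD, 0 rose and 1 fell. This was Notch2, a receptor that holds progenitors undifferentiated, at 72.9, 79.0 and 49.6 CPM in LFD replicates 1 to 3, 32.1 and 33.9 on HFD, and 45.9, 28.7, 28.9 and 26.0 in KD replicates 1 to 4. The KD libraries were all below the LFD libraries, as they were for 10.1% of all genes tested. Notch2 fell by 1.06 on the log2 scale (SE 0.21, edgeR adjusted p 0.0232, where the alternatives spanned 0.000639 to 0.450). The call was lost without LFD replicate 1 (edgeR adjusted p 0.0834), LFD replicate 2 (0.0794), KD replicate 2 (0.0707) or KD replicate 3 (0.0764). It was also lost when libraries were scaled by beta cell markers (0.450). The list had a median of -0.27 for KD against LFD, -0.12 for HFD against LFD and -0.03 for KD against HFD, with 0 called in the latter pair of comparisons.

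Of the other lists, 0 genes were called in any comparison by the edgeR test on all 9 libraries. The DESeq2 Wald test gave an adjusted p of 0.0104 to Mafa and 0.0157 to Socs2 for KD against LFD. It gave 0.02498 to Slc30a8, 0.0274 to Bambi and 0.0195 to Cckar for KD against HFD. The 18 mature beta cell genes, all tested, had a median log2 difference of 0.01 for KD against LFD, 0.31 for HFD against LFD and -0.15 for KD against HFD. Mafa, which encodes a transcription factor of mature beta cells, averaged 88.0 ± 14.0 CPM over LFD libraries (SD, n = 3), 168 ± 107 over HFD libraries (SD, n = 2) and 209 ± 87.6 over KD libraries (SD, n = 4). Its 4 KD libraries were all above the LFD libraries, as for 9.65% of genes, with a log2 fold change of 1.24 for KD against LFD and an edgeR adjusted p of 0.0980. Slc30a8, the zinc transporter of insulin granules, averaged 799 ± 115 CPM over HFD libraries (SD, n = 2) and 390 ± 117 over KD libraries (SD, n = 4), and did not pass either (log2 fold change -1.03 for KD against HFD, edgeR adjusted p 0.124). Without KD replicate 4, Slc30a8 passed with -1.22 (edgeR adjusted p 0.0298, where the alternatives spanned 0.0140 to 0.694).

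Among 17 other genes reported in dedifferentiated beta cells, 13 were tested, and the pluripotency genes Pou5f1 and Nanog were at 0 in all libraries. The median log2 difference of the list was -0.11 for KD against LFD, -0.40 for HFD against LFD and 0.34 for KD against HFD. Bambi, a decoy receptor of TGF-beta signalling, measured 42.8, 38.6 and 42.3 CPM on LFD, 80.1 and 49.5 on HFD and 19.4, 27.1, 20.7 and 50.0 in KD replicates 1 to 4. Its log2 fold change for KD against HFD was -1.14 (edgeR adjusted p 0.125), and it passed without KD replicate 4 with -1.52 (edgeR adjusted p 0.0159, where the alternatives spanned 0.00571 to 0.632). Serpina7, which encodes a thyroxine-binding globulin and is named here after its values were seen, measured 5.21, 7.48 and 4.08 CPM on LFD, 42.3 and 10.6 on HFD, and 2.49, 5.74, 4.98 and 22.7 in KD replicates 1 to 4. As for Aldh1a3, both HFD libraries lay above the LFD libraries, as for 13.4% of all genes tested, and KD replicate 4 was the highest on KD. The list as a whole did not follow, since 3 of its 13 tested genes were above 0 and 10 below 0 for HFD against LFD. The log2 fold change of Serpina7 for HFD against LFD was 2.24 (SE 0.87, edgeR adjusted p 0.468).

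For the partners of the peptides, 9 of 10 genes of the gastrin and cholecystokinin system were tested. Cckar, the cholecystokinin receptor that acinar cells carry, had 1027 to 2482 counts per library on LFD, 1139 and 1294 on HFD and 1900 to 6258 on KD. Its log2 fold change for KD against HFD was 2.48 (edgeR adjusted p 0.129). It passed without KD replicate 4 with 2.80 (edgeR adjusted p 0.0209, where the alternatives spanned 0.0120 to 0.997), and was -0.0083 with the acinar share as a covariate. Of 11 genes of urocortin and somatostatin signalling, 7 were tested. Crhbp, whose product binds peptides of this family, had 2 to 3 counts per library on LFD, 17 and 10 on HFD, and 1, 4, 2 and 12 in KD replicates 1 to 4 (edgeR adjusted p 0.449 for HFD against LFD). Sstr2, a somatostatin receptor, averaged 4.10 ± 1.06 CPM over LFD libraries (SD, n = 3) and 1.49 ± 0.219 over HFD libraries (SD, n = 2), with an edgeR adjusted p of 0.332. Of 21 genes of serotonin and prolactin signalling, 19 were tested. Socs2, a feedback inhibitor of growth hormone and prolactin signals, averaged 29.1 ± 4.52 CPM over LFD libraries (SD, n = 3) and 15.6 ± 4.14 over KD libraries (SD, n = 4), and missed the threshold with an edgeR adjusted p of 0.0630.

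The members were compared with all genes of at least 5 CPM on average by the Pearson correlation of log2 CPM over the 9 libraries, which share differences in acinar content. These are descriptions of likeness among 10405 candidates. Aldh1a3 was most like Ostc (0.976), Adamts17 (0.976) and Polr2g (0.967). Neurog3 was most like Gcg, the glucagon gene (0.937), Pbxip1 (0.899) and Mamld1 (0.892). Ucn3 was most like Gnl3l (0.993), Maged1 (0.988) and Dhdh (0.986), and Tph2 most like Zbtb25 (0.951), Hist1h4c (0.950) and P4htm (0.948). Between members the coefficient was 0.70 for Aldh1a3 and Tph2, 0.66 for Ucn3 and Tph2 and 0.65 for Aldh1a3 and Ucn3. It lay between -0.19 and 0.19 for the pairs with Neurog3. The value for Aldh1a3 and Ucn3 is on CPM, which beta cell content also moves. Per 1000 beta marker counts, HFD replicate 1 had the most Aldh1a3 (0.132) and the least Ucn3 (1.70) of the 9 libraries, and KD replicate 4 the most Aldh1a3 (0.0994) and the least Ucn3 (2.48) of the KD libraries. HFD replicate 2 went the other way, with 0.128 for Aldh1a3 and 3.02 for Ucn3, both above every LFD library. A relation between these ratios was not tested.

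**Figure D5:**
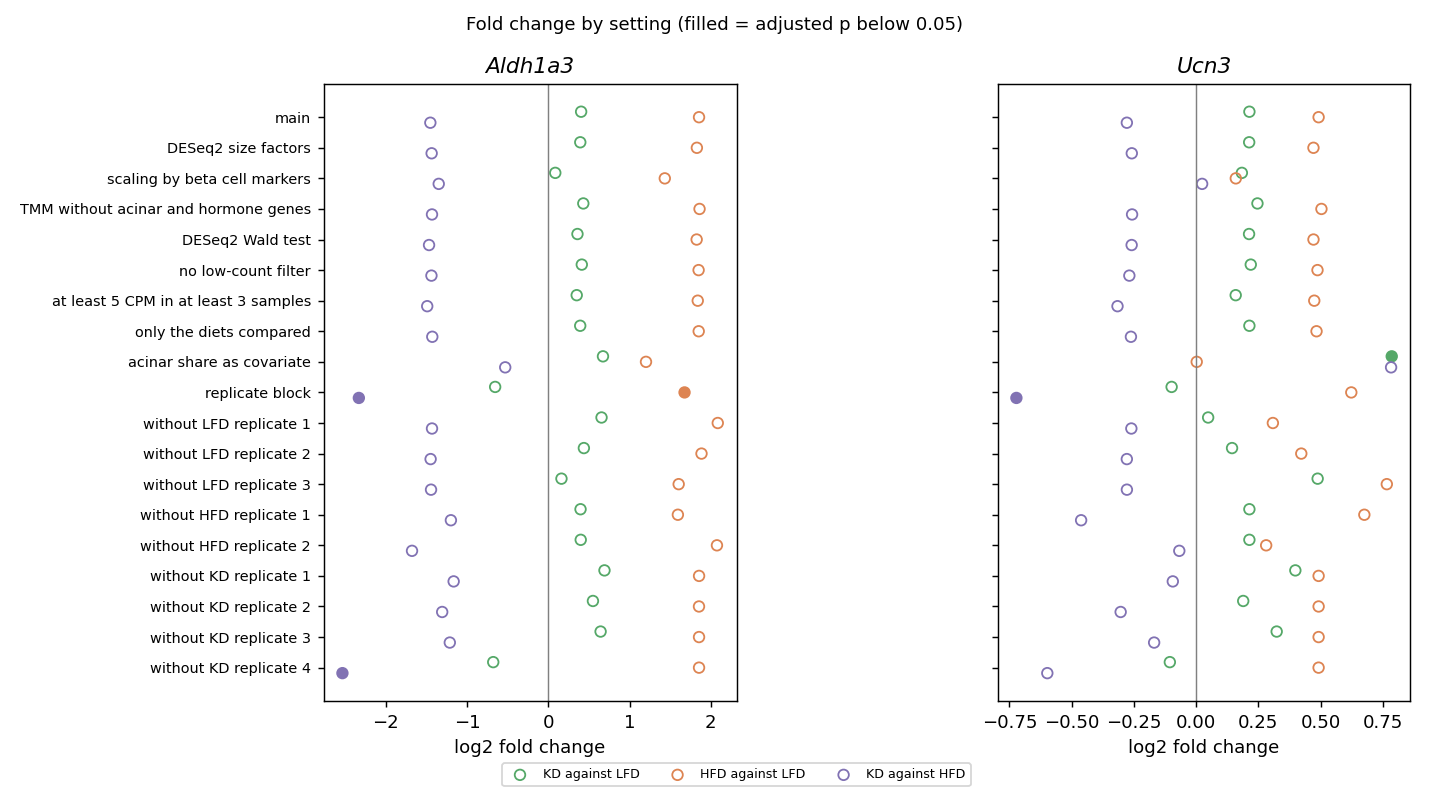
Log2 fold changes (horizontal axes) of Aldh1a3 and Ucn3 in the 3 comparisons under the main analysis and each of 18 alternatives (vertical axis); filled points have an adjusted p below 0.05. Aldh1a3 for HFD against LFD stays between 1.20 and 2.09, while its difference between KD and LFD changes sign without KD replicate 4 and with the replicate number as a block.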

How the data were processed

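RNA was measured by strand-specific sequencing of polyadenylated transcripts, per the labels' protocols. The authors deposited raw counts per Ensembl gene, with 1 column per sample. The submitters' processing notes name cutadapt 1.16, STAR 2.7.9a, featureCounts 1.6.3 and DESeq2 1.40.2 and the build GRCm39, without settings. Counting with regard to strand, isolation dates and batches are not given in the sources used here. Diet therefore cannot be told apart from any batch. Symbols came from GENCODE M21 (GRCm38), which matched 51948 of 56941 identifiers. No coordinates are printed because the builds differ, and lengths are unions of M21 exons.

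Counts were analysed in R 4.3.3 with edgeR 4.0.16. Genes passed filterByExpr by diet, which kept 18548 genes holding 99.86% or more of every total. TMM scaling was used, all 9 libraries entered 1 robust quasi-likelihood fit with a mean per diet, and tests were two-sided. Standard errors divide the absolute log2 change by the root of F. Correlations added 0.5 CPM before log2. Limits for a count of 0 used 3 counts. On simulated counts for 18548 genes with 200 changed, the fit recovered 35% of 2-fold and 75% of 4-fold changes for KD against LFD, 27% and 64% for HFD against LFD, and 26% and 70% for KD against HFD. Changed genes were drawn only from those above a minimum mean count, so these rates do not cover genes with few counts. Noise was independent between genes, without the shared differences in cell content of the real libraries.

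Alternatives were other scalings and filters, DESeq2 1.42.0, fits of only the diets compared, covariates and the omission of each library. The members and lists were chosen with earlier results of these data known. All members were named. Other genes were those of each list past the threshold (at most 5), otherwise up to 3 with the lowest p, and the 3 genes most like each tested member. Libraries of a diet differed by more than sampling noise (chi-square per gene at least 22.5). Per the labels, samples share replicate numbers, but nothing says that these pair them.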

Additional observations from a re-analysis of the deposited data

How the results depend on the processing

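Over 18 alternatives, 193 of 209 values of single members kept their direction and their side of the threshold, 11 turned and 5 newly passed. The cause of these changes was not tested. The number of members called moved from 0 to 1 for KD against LFD with the acinar share as a covariate (Ucn3). It moved to 1 for HFD against LFD with a replicate block (Aldh1a3), and for KD against HFD to 2 with the block (Aldh1a3 and Ucn3). Over fits without 1 library it was 0 to 0, 0 to 0 and 0 to 1 in the 3 comparisons, the 1 being Aldh1a3 without KD replicate 4. In the replicate block KD replicate 4, the only sample numbered 4, has no weight. Deviations of same-numbered samples correlated at -0.04 to 0.32, and 2 of 6 LFD and KD libraries correlated best with their own number, so a pairing was neither stated nor shown. With the block, KD against LFD was -0.65 for Aldh1a3, -0.23 for Neurog3 and -0.10 for Ucn3, all turned, and KD against HFD was -2.33 for Aldh1a3 and -0.72 for Ucn3. The block gave 1.68 for Aldh1a3 for HFD against LFD.

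With the acinar covariate, Tph2 for KD against LFD turned to 0.0034, Ucn3 for KD against HFD to 0.78 and Cckar for KD against HFD to -0.0083. Scaling by beta cell markers moved the median of all genes to -0.38 for HFD against LFD and 0.37 for KD against HFD, and turned Ucn3 for KD against HFD to 0.024. Without 1 library, KD against LFD ran from -0.68 to 0.69 for Aldh1a3, -0.29 to 0.40 for Neurog3 and -0.11 to 0.49 for Ucn3, and Neurog3 for HFD against LFD from -1.53 to 0.024. The ratio of Aldh1a3 to beta markers ran from -0.40 to 0.39 and that of Ucn3 from 0.23 to 0.41. Without insulin genes in the denominator the ratio of Ucn3 differed by 0.40. Its unadjusted exact permutation p was then 0.0286, the smallest that 35 splits can give, against 0.0857 with all 15 markers. DESeq2 gave no adjusted p to Tph2 for KD against HFD.

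Genes called over the whole table for KD against LFD, 764, were 213 with scaling by beta markers, 1773 by DESeq2, 383 above 5 CPM in 3 samples, 1376 with the acinar covariate, 2003 with the block and 151 to 1342 without 1 library. For HFD against LFD, 0 became 268 by DESeq2, 81 unfiltered, 393 with the block and 0 to 195 without 1 library. For KD against HFD, 0 became 1518, 316 and 2320 in the same order, 2 with the acinar covariate and 0 to 1768 without 1 library. With 0 to 75 counts of Neurog3 or Tph2 per library, depth limits what their fits can show.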
